A study of Sus scrofa with 12 samples.

Results

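The genes of the extracellular matrix were followed in the liver of 12 piglets, with the enzymes that remodel it and the genes that mark hepatic stellate cells, the main collagen-producing cells of the liver. A gene was taken when its symbol began as those of the collagen chains, the matrix metalloproteinases (MMP), their tissue inhibitors (TIMP), the ADAMTS proteases or the numbered lysyl oxidase-like enzymes. LOX and a short list of stellate, mesenchymal and matrix genes were added by name. This rule found 59 genes, on 62 of the 25385 transcript clusters tested, of which 14430 had a gene symbol. A transcript cluster is the group of probes that the array assigns to 1 gene or locus, and where a gene had several, the brightest on average was taken. One of the 59, COL4A3BP, only shares the letters, since it encodes the ceramide transfer protein and no collagen.

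All animals were male crossbred pigs (Pietrain x (German Landrace x German Edelschwein)), 5 weeks old at the start, fed the same diet and kept in pairs. The 6 pigs of group PIV received sodium pivalate by mouth for 28 days, at 30 mg per kg of body weight and day, and the 6 pigs of group CON received the vehicle, sodium hydrogen carbonate. Pivalate, a short-chain acid with a branched carbon skeleton, is excreted bound to carnitine, so that the study asked what a lowered carnitine status does to the liver transcriptome. The sources used here do not say which pigs shared a pen, and every test took each pig as independent.

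Collagens are built from chains that wind around each other into a helix, and most genes of this family encode 1 such chain. In the healthy liver, types I and III lie around the portal tracts and central veins, type IV lines the sinusoids, and type VI forms fine beaded filaments. A resting stellate cell stores vitamin A, and after injury it can turn into a myofibroblast that secretes fibrillar collagen, while metalloproteinases cleave the matrix and their inhibitors hold them back.

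Each pig was measured once on an Affymetrix porcine gene array, and the values are log2 signals. Array medians lay between 4.75 and 4.88. The tissue was checked with marker genes. Those of hepatocytes were bright in all pigs, with a mean log2 signal over the 7 measured markers of 10.98 to 11.41 in the CON pigs and 11.11 to 11.39 in the PIV pigs. The 9 measured stellate cell markers had a mean of 6.09 to 6.46 and 6.18 to 6.43. Of the 10 marker lists, which also covered smooth muscle, portal fibroblasts, endothelium, cholangiocytes, Kupffer cells, lymphocytes, mesothelium and red cells, none held a gene past the filter defined below. That filter was passed by only 1.82% of all clusters tested. The CON arrays carry lower numbers than the PIV arrays, so that an effect of this order and one of the treatment cannot be told apart.

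Of the 59 genes, 32 had a log2 signal of at least 5 in at least 6 pigs and are called bright. The other 27 are called dim, and their values may be mostly background, for which no limit was measured. Among the dim genes were COL9A1, COL10A1, COL11A1, COL17A1 and COL19A1, which are best known from cartilage, skin and embryonic tissue, and 7 of the 14 metalloproteinases. COL2A1, also a cartilage collagen, was bright all the same, with every pig between 5.37 and 6.00. The limit of 5 thus did not set collagens of other tissues apart. On chromosome 9 MMP7, MMP27, MMP1, MMP3, MMP12 and MMP13 followed each other between positions 32846238 and 33209282, and of these only MMP7 was bright.

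Group PIV was compared with group CON by limma at the filter of the study, an unadjusted p under 0.05 together with a fold change (FC) above 1.2 in either direction. One of the 59 genes, COL6A5, passed this filter, where 1.82% of all clusters tested did, and it was lower in group PIV, a direction taken by 0.788% of all clusters, while none of the 59 passed as higher, a direction taken by 1.03%. It was also the only 1 of the 59 with an unadjusted p under 0.05, where 3.63% of all clusters had one. With only bright clusters in the fit none of the 59 genes passed the filter, where 1.37% of these clusters did. After Benjamini-Hochberg adjustment over all clusters no gene passed, and the lowest adjusted p of limma among the 59 was 1. The fold changes were small: the log2 FC was positive for 38 genes and negative for 21, with a median of 0.035 over the 59 genes and of 0.006 over all clusters. They ran from −0.48 for COL6A5 to 0.34 for RGS5. The 95% interval of the fold change stayed within 1.5-fold in both directions for 52 of the 59 genes, or 88.1%, compared with 96% of all clusters, and within 2-fold for 58, LUM being the exception. Intervals were wider for the genes that varied most between pigs, as the plot of group differences shows.

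**Figure D1:**
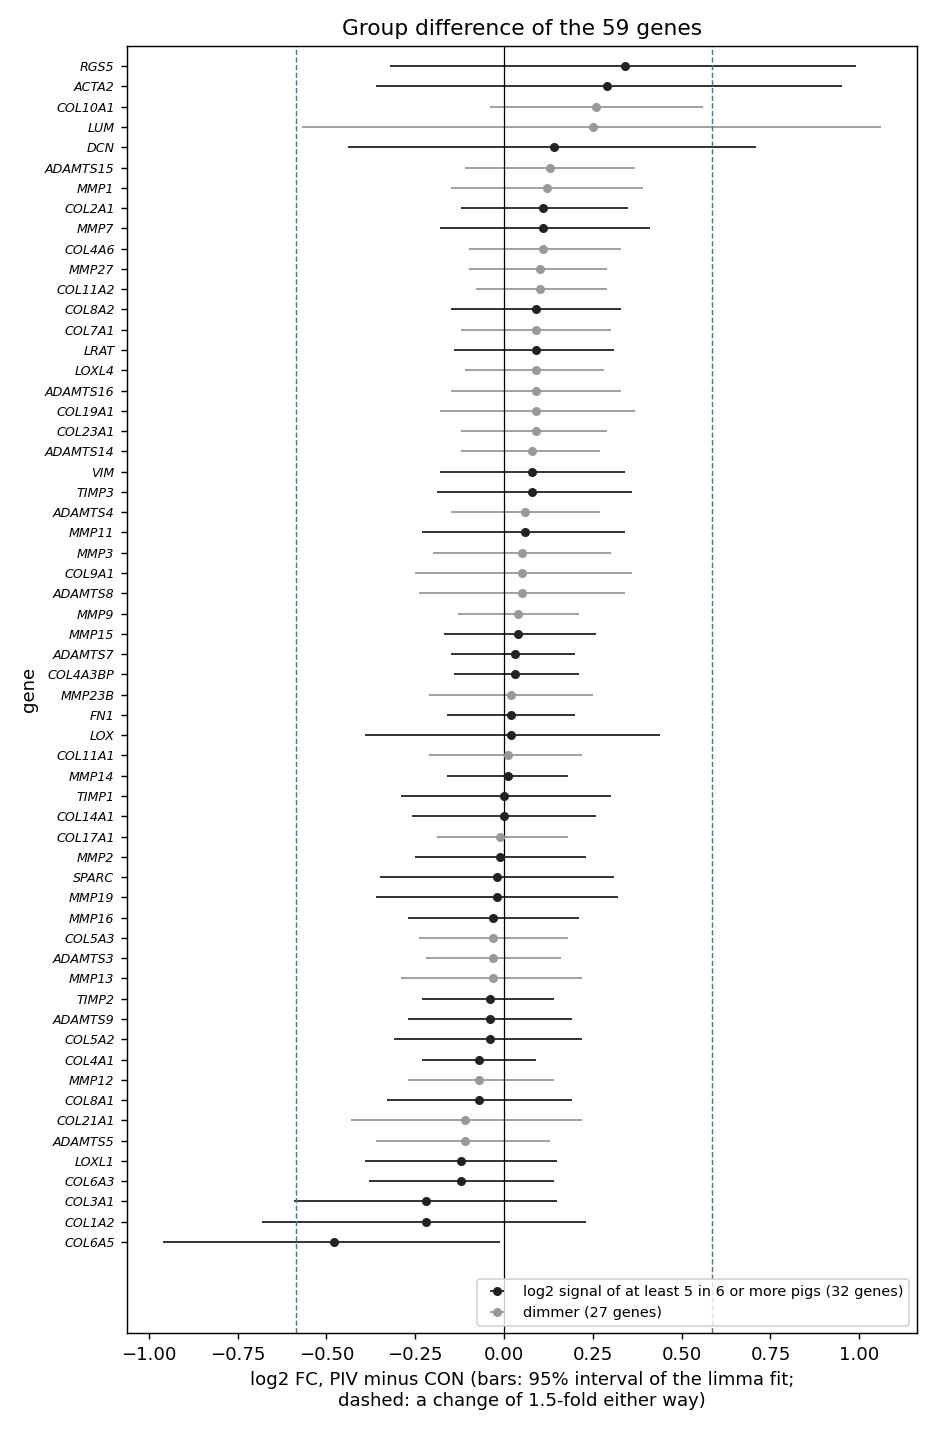
Log2 FC of group PIV over group CON for each of the 59 genes (x axis, log2 units; y axis, gene), with the 95% interval of the limma fit as bars and a change of 1.5-fold as dashed lines. The values lie between −0.48 and 0.34, the interval of COL6A5 alone leaves out 0, and those of LUM, RGS5, ACTA2 and DCN are among the widest.

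COL6A5 encodes a chain of type VI collagen that can take the place of the α3 chain. Its cluster of 34 probes is placed on chromosome 13 from 1592435 to 1681709 in the annotation of the array, for which the sources used here name no genome build. Its log2 signal in group CON was 5.19 in K1, 6.08 in K3, 6.12 in K4, 4.81 in K22, 5.67 in K23 and 6.13 in K42. In group PIV it was 5.45 in P10, 4.82 in P12, 5.26 in P29, 4.91 in P30, 5.73 in P31 and 4.92 in P50. The groups overlapped over the whole range of group PIV: K22 lay below every PIV pig, and the 3 highest CON pigs lay above all of them. The mean was 5.67 ± 0.56 (SD) for CON and 5.18 ± 0.36 for PIV, a log2 FC of −0.48 (SE 0.22, 95% interval −0.96 to −0.01) with an unadjusted limma p of 0.0475. An exact permutation test over the pigs, two-sided, gave p = 0.106, and with the study's own test in place of limma none of the 59 genes passed the filter, where 1.18% of all clusters did. The gene also missed the filter without K3, K4, K23, K42, P12, P29, P30 or P50.

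The other chains of type VI collagen did not pass. COL6A3, the α3 chain, had a log2 FC of −0.12 (SE 0.12), and its 2 other clusters on the array had 0.10 and −0.03, so that its clusters differed in sign. The α1 and α2 chains, COL6A1 and COL6A2, carry no gene symbol in the annotation and were found through an mRNA entry marked as cross-hybridising, which makes their values uncertain. They had log2 FC of −0.10 (SE 0.10) and −0.00 (SE 0.12).

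Type I and type III collagen form the thick fibrils of scar and of the portal stroma. COL1A2, the α2 chain of type I, had log2 signals of 7.63, 7.81, 8.54, 7.88, 7.78 and 7.28 in CON pigs K1, K3, K4, K22, K23 and K42, and of 7.62, 8.02, 7.70, 6.93, 8.16 and 7.16 in PIV pigs P10, P12, P29, P30, P31 and P50. K4 and P31 were the highest of their groups, K42, P50 and P30 were the 3 lowest of all, and the groups overlapped. The log2 FC was −0.22 (SE 0.21, 95% interval −0.68 to 0.23, exact permutation p = 0.413). COL3A1, the single chain of type III, ran from 7.60 through a median of 8.13 to 8.59 in group CON and from 7.41 through 7.99 to 8.41 in group PIV, with the same pigs at both ends and a log2 FC of −0.22 (SE 0.17, exact permutation p = 0.318).

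The α1 chain of type I has no symbol of its own here. Its description, collagen alpha-1(I) chain, stands at 2 loci of chromosome 12, LOC100738213 and LOC397571, outside the rule on symbols, and the brightest cluster of the first is used below as collagen α1(I). It ran from 9.64 in K42 to 11.05 in K4 in group CON and from 9.33 in P50 to 10.72 in P31 in group PIV, a range of 3.28-fold over the 12 pigs. Its log2 FC was −0.30 (SE 0.25, 95% interval −0.82 to 0.23, exact permutation p = 0.346), and the other 3 clusters of this description had −0.24, −0.18 and −0.15. Of the chains that mix with types I and III, COL5A2, which lies beside COL3A1 on chromosome 15 and sets fibril diameter, had a log2 FC of −0.04 (SE 0.12). COL14A1, which binds to the surface of fibrils, had 0.00 (SE 0.12), and its sign depended on the setting.

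**Figure D2:**
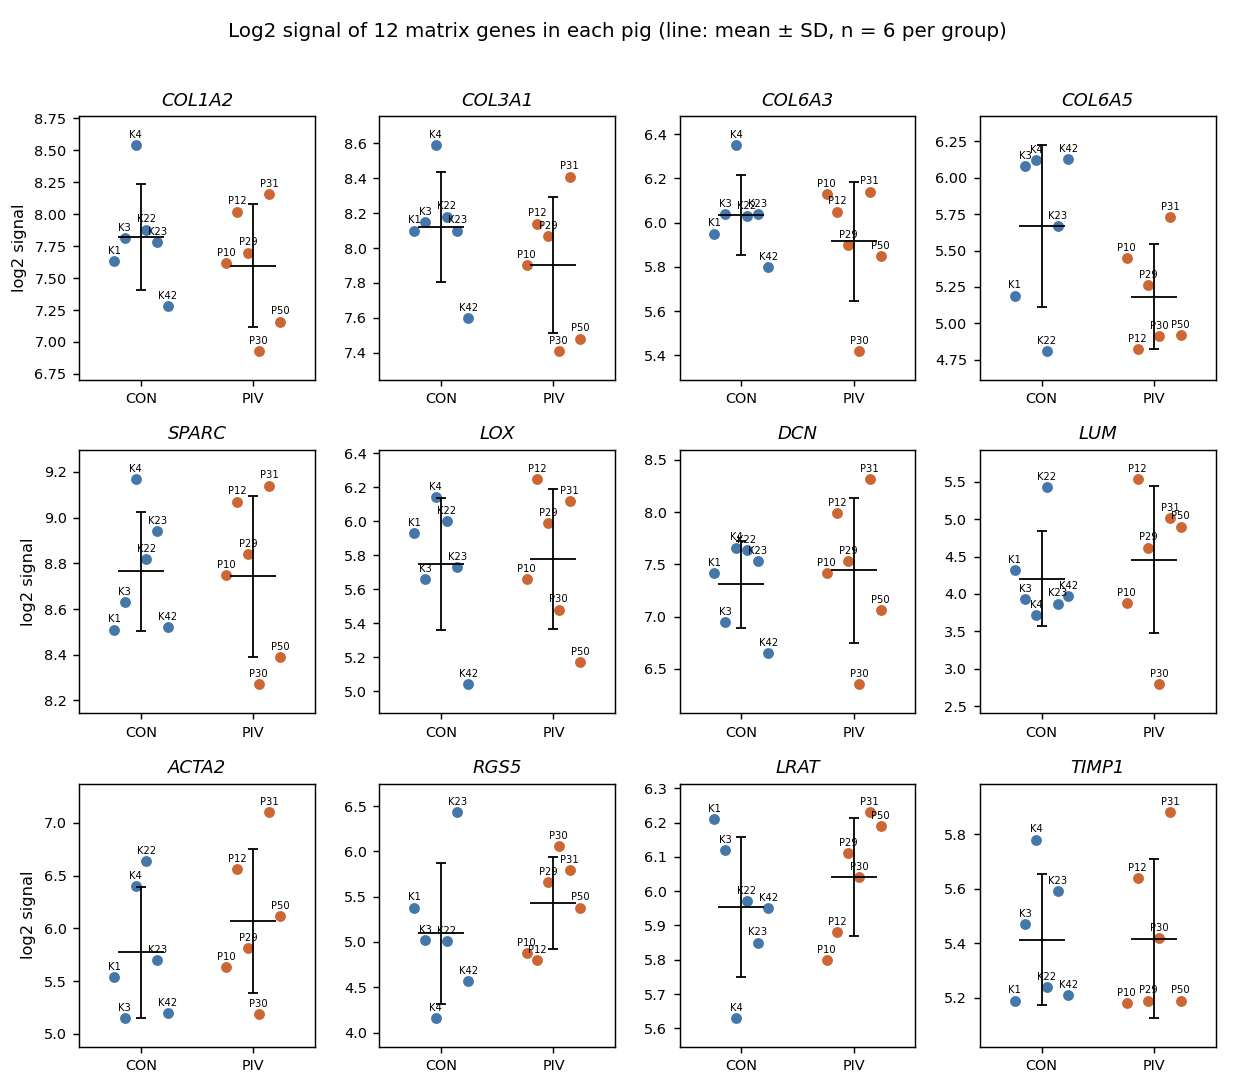
Log2 signal (y axis, one scale per gene) of 12 matrix genes in each of the 6 CON and 6 PIV pigs, with the mean and the SD of each group as a line and a bar. K4 and P31 are the highest of their groups for COL1A2 and COL3A1, K42 and P30 the lowest, and the groups overlap in every panel, COL6A5 included.

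The sheet-like type IV collagen of basement membranes moved little. COL4A1 had a mean of 6.36 ± 0.08 (SD) for CON and 6.29 ± 0.11 for PIV, a log2 FC of −0.07 with a 95% interval of −0.23 to 0.09. Its within-group SD of 0.10 was the smallest of the 59 genes. Brighter clusters named COL4A1 only through cross-hybridising mRNA entries had log2 FC of 0.00 (SE 0.09) and −0.00 (SE 0.08). COL4A2, its partner chain, read through a cross-hybridising mRNA entry, had a log2 FC of 0.05 (SE 0.09). COL10A1, a network-forming chain of growth cartilage, had the second smallest p of the 59 (limma, unadjusted, 0.0812), but it was dim in all pigs. Its log2 signal was 2.98 to 4.01 in the CON pigs and 3.79 to 4.00 in the PIV pigs, and all PIV pigs lay within the CON range. The log2 FC of 0.26 (SE 0.14) was 0.134 without K1, the lowest pig, while the gene passed the filter without K4 or without K42. The 4 other dim genes among the 8 smallest p were COL11A2, COL4A6, MMP27 and ADAMTS15, with log2 FC from 0.10 to 0.13.

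The enzymes that link and cut collagen did not pass the filter. LOX, which oxidises lysines so that fibrils can be crosslinked, had a mean of 5.75 ± 0.39 (SD) in group CON and 5.78 ± 0.42 in group PIV, and LOXL1, its relative in elastic fibres, 5.44 ± 0.16 and 5.32 ± 0.31. All 14 metalloproteinases had a 95% interval within 1.5-fold, with log2 FC from −0.07 to 0.12. Among these, MMP2, the gelatinase of mesenchymal cells, had −0.01 (SE 0.11), MMP14, the membrane enzyme that activates it, 0.01 (SE 0.08), and MMP9, the gelatinase of white blood cells, 0.04 (SE 0.08) at a dim signal. The 9 ADAMTS proteases, most of which trim procollagen or aggrecan, had log2 FC from −0.11 to 0.13. ADAMTS1, found through its locus outside the rule on symbols, had −0.32 (SE 0.16, 95% interval −0.67 to 0.02) and did not pass the filter. The other ADAMTS clusters outside that rule lay between −0.11 and 0.10. The inhibitors TIMP1, TIMP2 and TIMP3 had 0.00 (SE 0.14), −0.04 (SE 0.09) and 0.08 (SE 0.13). TIMP1, a gene that rises in liver fibrosis, thus had a mean of 5.41 ± 0.24 (SD) in group CON and 5.42 ± 0.29 in group PIV.

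As a set, though not each of them, the stellate and mesenchymal genes varied most between pigs of the same group. The within-group SD had a median of 0.443 over the 8 genes of this kind, compared with 0.208 over the 59 genes and 0.180 over all clusters. LUM, a small proteoglycan that spaces fibrils, had the largest SD of the 59 (0.82), above 99.8% of all clusters, followed by RGS5, a pericyte gene, with 0.66, ACTA2, the smooth muscle actin of myofibroblasts, with 0.65, and DCN, the proteoglycan decorin, with 0.57. Among the bright genes the median SD was 0.232, and among all bright clusters 0.166.

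ACTA2 had log2 signals of 5.54, 5.15, 6.40, 6.64, 5.70 and 5.20 in K1, K3, K4, K22, K23 and K42, and of 5.63, 6.56, 5.81, 5.19, 7.10 and 6.12 in P10, P12, P29, P30, P31 and P50. P31 was the highest of all pigs and K3 the lowest, 3.86-fold apart, and the means differed by 0.29 (SE 0.31, exact permutation p = 0.448). DCN ran from 6.65 in K42 to 7.66 in K4 in group CON and from 6.35 in P30 to 8.32 in P31 in group PIV, a 3.94-fold range over all pigs with a log2 FC of 0.14 (SE 0.27). LUM, which lies beside DCN on chromosome 5, was dim in 9 of the 12 pigs by the limit of 5 and ran from 2.79 in P30 to 5.54 in P12, with a log2 FC of 0.25 (SE 0.38). In a bulk tissue sample, fewer cells of a type and less RNA per cell cannot be told apart for any of these genes.

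RGS5 followed another order of pigs. It was highest in K23 (6.43) and lowest in K4 (4.16), and the PIV pigs ran from 4.80 in P12 to 6.06 in P30, which held the lowest values of COL3A1 and DCN. Its mean was 5.09 ± 0.78 (SD) in group CON and 5.43 ± 0.51 in group PIV. The log2 FC of 0.34 (SE 0.31, exact permutation p = 0.385) became 0.60 without K23, where RGS5 passed the filter.

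The group means of the remaining genes of this kind lay close together. LRAT, which makes the retinyl esters that resting stellate cells store, had a mean of 5.95 ± 0.21 (SD) for CON and 6.04 ± 0.17 for PIV, a log2 FC of 0.09 with a 95% interval of −0.14 to 0.31. FN1, fibronectin, which hepatocytes also secrete, had 11.67 ± 0.17 and 11.69 ± 0.07, VIM, the filament protein of mesenchymal cells, 7.02 ± 0.17 and 7.10 ± 0.27, and SPARC, a matrix protein that binds collagen, 8.76 ± 0.26 and 8.74 ± 0.35. Between pigs, SPARC varied more than 91.5% of all clusters (within-group SD 0.31) and VIM more than 73.3% (0.23). LRAT varied more than only 56.3% (0.19) and FN1 more than only 16.7% (0.13). DES, PDGFRB and TGFB1 were named in the rule but carry no symbol in the annotation. Through mRNA entries marked as cross-hybridising they had log2 FC of −0.12 (SE 0.08), 0.04 (SE 0.11) and −0.03 (SE 0.10). A second, slightly dimmer cluster of TGFB1, also cross-hybridising, had 0.05 (SE 0.08), so that its clusters differed in sign. The receptor PDGFRA, found through its locus, had −0.07 (SE 0.09). Its dimmer cluster, named through a cross-hybridising mRNA entry, had −0.19 (SE 0.12). With these, 59 further clusters named as matrix genes outside the symbol column were examined. None passed the filter, where 1.82% of all clusters tested did.

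Since the group means were close, the deviation of each pig from the mean of its own group was compared between genes. Among the 32 bright genes, K4 was the highest CON pig for 14 (43.8%) and K42 the lowest for 13 (40.6%), and P31 was the highest PIV pig for 16 (50%) and P30 the lowest for 11 (34.4%). Over all bright clusters these pigs held the same place in 9.9%, 25%, 15.2% and 14.6%. P50, the second lowest PIV pig for COL1A2 and COL3A1, was the lowest of its group for 7 genes (21.9%), close to its share of 21.6% over all bright clusters. In the plot of deviations by pig, the upper rows turn the same colour within a pig and the lower rows do not.

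**Figure D3:**
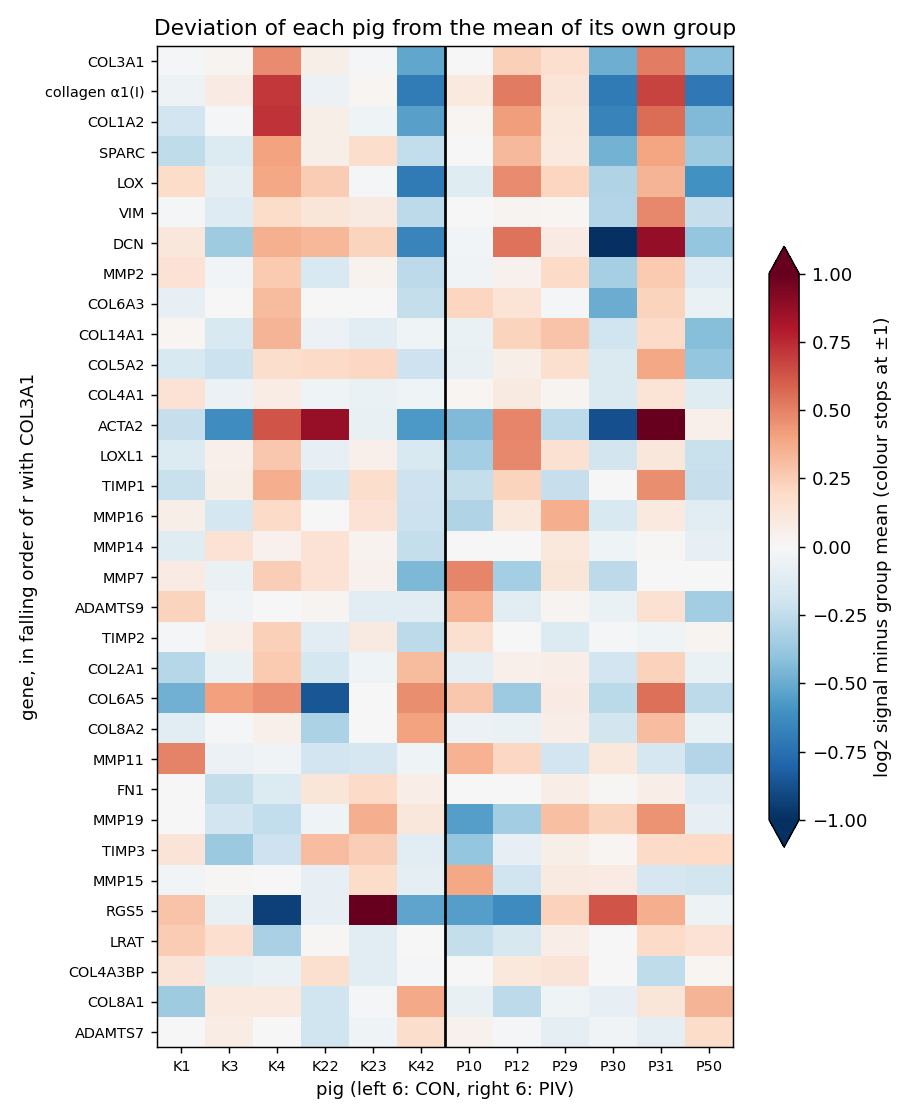
Log2 signal of each pig minus the mean of its own group (colour, in log2 units, red above and blue below) for the 32 bright genes and collagen α1(I), ordered by their correlation with COL3A1. From COL3A1 down to COL5A2, K4 and P31 are above and K42 and P30 below their group mean, with P50 below as well, while RGS5 is opposite in K4 and P30.

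Correlations across the 12 pigs were computed for 8 pairs chosen by function, with permutation tests and adjustment over the 8 pairs. Collagen α1(I) and COL1A2, which are wound into 1 molecule, had a Pearson r of 0.98 (permutation, adjusted p = 8.0e-05) and a Spearman rho of 0.94 (permutation, adjusted p = 4.0e-04). Without P30 and P50, the 2 pigs farthest from the median of collagen α1(I), r was 0.97, and within the groups it was 0.97 in group CON and 0.99 in group PIV. Collagen α1(I) and COL3A1, chains of different molecules, had an r of 0.98 (permutation, adjusted p = 8.0e-05) and a rho of 0.92 (adjusted p = 4.0e-04), with 0.97 without the same 2 pigs, 0.99 in group CON and 0.98 in group PIV.

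DCN followed COL3A1 with an r of 0.79 (permutation, adjusted p = 0.00659) and a rho of 0.78 (adjusted p = 0.00764). The r was 0.68 without P30 and P50, 0.78 in group CON and 0.95 in group PIV. TIMP1 and collagen α1(I) had an r of 0.66 (permutation, adjusted p = 0.0297) and a rho of 0.80 (adjusted p = 0.00712), with 0.81 without P30 and P50, 0.80 in group CON and 0.63 in group PIV.

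For another 2 pairs Pearson's r passed after adjustment and Spearman's rho did not. COL6A1 and COL6A2 had an r of 0.65 (permutation, adjusted p = 0.0297) but a rho of 0.55 (adjusted p = 0.106), with 0.64 without K4 and P30, 0.67 in group CON and 0.69 in group PIV. DCN and its neighbour LUM had an r of 0.68 (permutation, adjusted p = 0.0297) and a rho of 0.49 (adjusted p = 0.147), and r fell to 0.45 without P30 and P31, with 0.33 in group CON and 0.81 in group PIV, so that it rested on those 2 pigs.

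For 2 pairs no relation was detectable. COL4A1 and COL4A2, chains of 1 molecule, had an r of 0.04 (permutation, adjusted p = 0.972) and a rho of 0.05 (adjusted p = 0.886), with 0.07 without K1 and P30, 0.25 in group CON and −0.05 in group PIV. The r was −0.10 with equal array medians and 0.32 after a further quantile normalization. The log2 signals of COL4A1 spanned a range of only 0.34 over the pigs. Its brighter clusters, named only through mRNA entries marked as cross-hybridising, were not tried in this pair. DES and ACTA2 had an r of 0.01 (permutation, adjusted p = 0.972) and a rho of −0.23 (adjusted p = 0.536), with −0.46 without K23 and P30, −0.35 in group CON and 0.55 in group PIV. The probes of COL4A2 and DES are those marked as cross-hybridising, and the part of this in the low values was not tested.

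**Figure D4:**
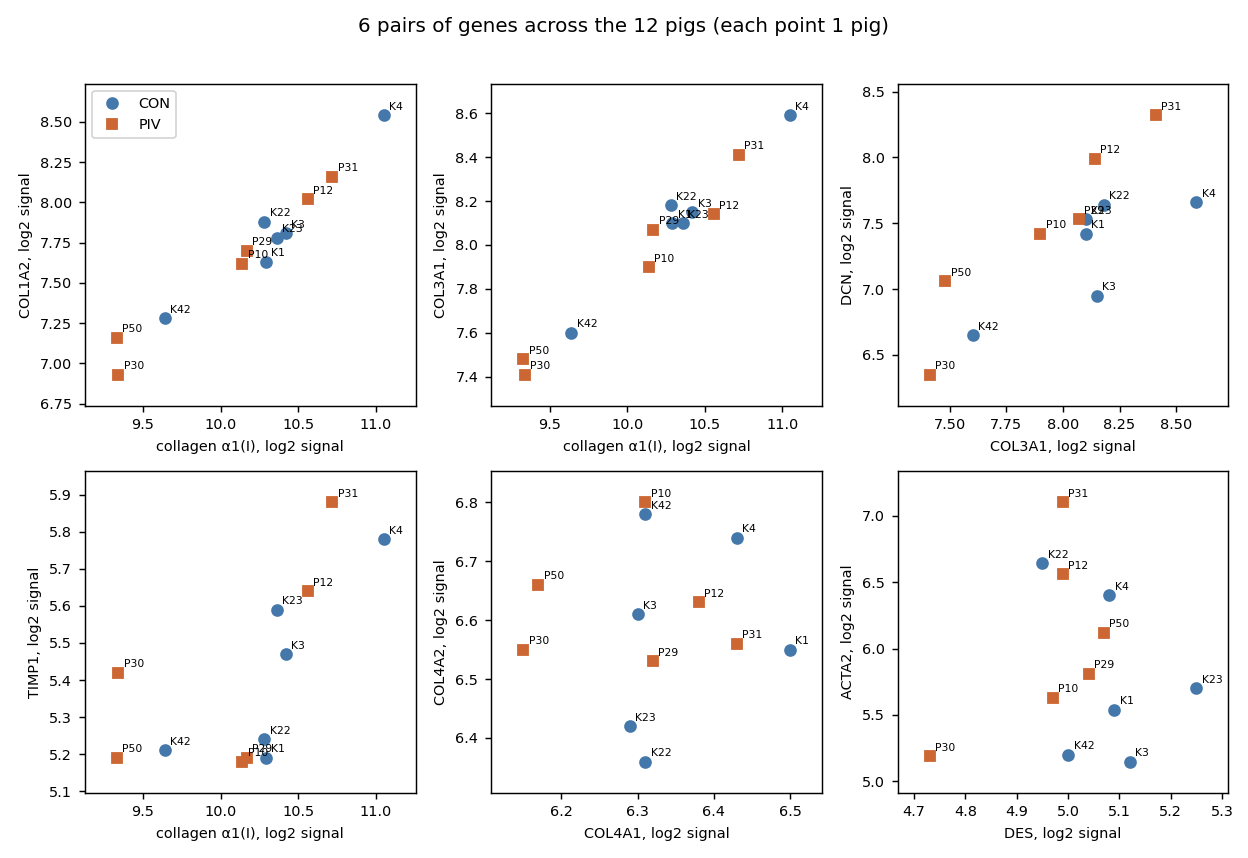
Log2 signals of 6 pairs of genes plotted against each other, each point 1 pig (circles CON, squares PIV). Collagen α1(I) lies close to a line with COL1A2 and with COL3A1 (r 0.98 for both), DCN and TIMP1 scatter more (0.79 and 0.66), and COL4A1 with COL4A2 and DES with ACTA2 form no line (0.04 and 0.01).

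After removal of the group means, r with COL3A1 over the 12 pigs was 0.97 for COL1A2, 0.90 for SPARC, LOX and VIM, 0.89 for DCN, 0.88 for MMP2 and 0.84 for COL6A3. These 7 of the other 31 bright genes (22.6%) had an r of at least 0.8, compared with 38 of 11788 bright clusters (0.322%). COL14A1 and COL5A2 followed with 0.78 each and COL4A1 with 0.76. At the other end were RGS5 with −0.18, LRAT with −0.21, COL8A1, a chain of vascular matrix, with −0.32, and ADAMTS7 with −0.55, while FN1 had −0.03. The median r over all pairs of the 10 bright collagens was 0.42, over all pairs of the 32 bright genes 0.13 and over all pairs of bright clusters 0.02.

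Among 6921 bright clusters with 1 gene symbol outside the 59 genes, the pattern of COL3A1 was most alike in the 2 loci of collagen α1(I) (r 0.98 and 0.96 over the 12 pigs, group means removed), the fibrillin FBN1 (0.93), the laminin chain LAMB1 (0.92) and the basement membrane linker NID2 (0.88). CCL21, a chemokine that guides lymphocytes, TACC1, CCDC80 and FGL2 were also among the first 10, with r from 0.86 to 0.88. For DCN they were CCL21 (0.94), TAGLN (0.93), FBN1 (0.91), FRZB and C7 (0.90 each), DPT and CAV1 (0.89 each), and CCDC80, IGFBP7 and BICC1 (0.87 each). ACTA2, with an r of 0.85 with DCN and 0.70 with COL3A1, stood nearer to DCN, but the difference was not tested.

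TAGLN belongs to the smooth muscle markers, so the marker lists were set beside this pattern. Of the 7 smooth muscle markers 5 were measured, with r with DCN from −0.36 for CNN1 to 0.93 for TAGLN, and MYH11 and LMOD1 were not found. Their mean log2 signal was 5.05 to 5.48 in the CON pigs and 5.07 to 5.53 in the PIV pigs. Among stellate cell markers outside the 59 genes, r with DCN was 0.61 for RELN, 0.44 for DES and 0.42 for HGF but −0.50 for NGFR and −0.22 for PDGFRB. The 3 measured portal fibroblast markers, of 6 listed, had −0.24 to 0.28, with a mean log2 signal of 5.36 to 5.75 in the CON pigs and 5.13 to 5.86 in the PIV pigs. With COL3A1, the 7 hepatocyte markers had r from −0.41 for ALB to 0.04, the 8 Kupffer cell markers from −0.18 to 0.37 and the 5 lymphocyte markers from −0.33 to 0.39. Higher values were found among the 5 smooth muscle markers, from −0.56 for CNN1 to 0.73 for TAGLN, the 9 measured endothelial markers, from −0.36 for TEK to 0.53 for ENG, and the 5 measured cholangiocyte markers, from −0.35 for SPP1 to 0.43 for CFTR and 0.60 for EPCAM, which was dim. The mean log2 signal of the endothelial markers was 7.32 to 7.45 in the CON pigs and 7.35 to 7.44 in the PIV pigs, and that of the cholangiocyte markers 5.38 to 5.68 and 5.24 to 5.70. The part of each cell type in the collagen pattern was not tested.

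Other genes of collagen handling were looked up from lists by role. Of 29 genes for collagen modification, folding and processing 21 were measured, with a median log2 FC of −0.060. None of them passed the filter, where 1.82% of all clusters tested did. PPIB, a prolyl isomerase that helps procollagen fold, had a log2 FC of −0.16 (SE 0.08), and SERPINH1, the collagen chaperone, −0.11 (SE 0.13). P4HA2, a prolyl hydroxylase chain, had −0.24 (SE 0.12), a value that is uncertain because it was read through a cross-hybridising mRNA entry. Of 42 other matrix proteins 32 were measured and of 18 other stellate cell markers 16, and none passed the filter, against the same 1.82% of all clusters.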

How the data were processed

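Liver RNA was measured on 1 array per pig. The authors corrected the background, normalized across arrays and summarised the probes by RMA (Affymetrix Expression Console 1.4, per the submitters' processing notes), and the deposited values are log2 signals. Because RMA had been run before deposit, normalization could be varied only on summarised values. The sheet also holds the authors' own fold changes and p-values, which were not used.

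All 25385 clusters (3 of ribosomal RNA left out) were fitted with limma 3.58.1 in R 4.3.3 (lmFit, eBayes), tested first on simulated data, with Benjamini-Hochberg adjustment over all of them. Single genes had exact permutation tests, two-sided, whose smallest possible p is 0.00216, and correlations 100000 permutations. The number of arrays limits the precision.

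The genes, lists and pairs were chosen with earlier results of these data known. Genes named singly were those past the filter, the 8 with the smallest p, a core set by role and the 10 most like COL3A1. The list for DCN, and PPIB, P4HA2 and SERPINH1, were chosen after their values were seen. Alternatives were the methods' t-test, other variance estimates, array weights, renormalization, the value table of the series, a dim filter, other clusters and leaving out each pig. Concentrations, qPCR and metabolites were not analysed here. Results of some genes are left out.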

Additional observations from a re-analysis of the deposited data

Results flagged for a closer look

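A pig was picked out where its gap to the nearest pig of its group was large for the range of the group by Dixon's test at the 95% level. Over 64 sets of a gene and a group, 3 were picked out, and chance alone picks out about 1 in 20. COL14A1 in CON pig K4 had a log2 signal of 6.85, above 6.36 to 6.53 in the other CON pigs. LUM in CON pig K22 had 5.43, above 3.72 to 4.32 in the others. DES in PIV pig P30 had 4.73, below 4.97 to 5.07 in the others, through probes marked as cross-hybridising.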

How the results depend on the processing

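The count of genes past the filter, 1 of 59, became 0 with the methods' t-test, with a variance trend and robust estimation, with only bright clusters in the fit and with a FC above 1.5. It was 0 to 1 when single pigs were left out, 0 without K3, P12, P29, P30 or P50, and the gene that passed was COL10A1 without K4 or K42 and RGS5 without K23. The median log2 FC over the genes kept its sign in every setting run. For 28 genes named singly, 506 fits were made, of which 451 kept direction and side of the filter, 3 newly passed, 10 no longer passed and 42, in 12 genes, changed sign, with no changed value above 0.12 in size; the cause was not tested. With equal array medians the log2 FC was −0.017 for COL14A1, −0.001 for FN1, −0.009 for MMP14 and −0.014 for TIMP1. COL14A1 had −0.003 in the value table of the series, MMP2 0.005 after a further quantile normalization, TIMP1 −0.034 with array weights and COL6A3 0.100 in another cluster. When single pigs were left out, the log2 FC ranged from −0.056 to 0.086 for COL14A1, −0.12 to 0.033 for COL5A2, −0.04 to 0.355 for DCN, −0.032 to 0.055 for FN1, −0.117 to 0.146 for LOX, −0.04 to 0.036 for MMP14, −0.06 to 0.058 for MMP2, −0.098 to 0.076 for SPARC, −0.09 to 0.077 for TIMP1, −0.096 to 0.004 for TIMP2 and −0.015 to 0.139 for VIM. No paired analysis was possible because the replicate numbers follow the order of the samples and pair no pigs. For the 27 dim genes no limit of background was measured, so the size of a change is less certain there.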
